A study of Mus musculus with 9 samples.

Results

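The genes described here are 33 members of the NF-kB pathway, measured in memory T cells specific for lymphocytic choriomeningitis virus (LCMV). They were chosen by their known role in the pathway, as 5 NF-kB subunits, 6 IkB proteins, 8 kinases and kinase partners, 7 TRAF and IAP adaptors, 3 genes grouped with the Bcl10-Malt1 signalling arm, and 4 editors of ubiquitin chains. No cutoff on a measured value was applied to them, but the list was drawn up with earlier results of these data known. Counts of members that differ are therefore given as descriptions beside the same counts over all genes, and are not evidence about the pathway. All 33 were found among the 48663 named entries of the count table, and all 33 are among the 15738 genes with enough counts to be tested.

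Cells were sorted from mouse spleen on day 30 after infection with LCMV Arm (the Armstrong strain, which causes an acute infection), using peptide-MHC tetramers that bind T cells specific for one viral peptide. CD4 ThpokAD cells bound the GP66:I-Ab tetramer and came from mice carrying Ox40-Cre and the floxed Thpok allele (Thpokfl/fl). CD8 control cells bound GP33:H-2Db, and CD4 control cells bound GP66:I-Ab; both came from Ox40-Cre- mice. Each group has 3 libraries. Thpok, encoded by Zbtb7b, is a transcription factor that maintains the CD4 helper identity of T cells, and Ox40-Cre is a Cre whose expression follows Ox40 (Tnfrsf4), a receptor induced on activated T cells. Only the CD4 ThpokAD mice carry Cre, so an effect of Cre or of its locus and an effect of losing Thpok cannot be told apart. Between CD8 control and CD4 control, the lineage, the viral peptide and the tetramer change together. The labels do not say that replicates came from separate mice, so p-values here reflect the spread among these libraries alone, and that spread may be technical.

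NF-kB is a family of dimeric transcription factors that T cells use after antigen receptor, costimulatory and cytokine signals. In resting cells IkB proteins hold the dimers in the cytoplasm; the IKK complex phosphorylates IkB, the inhibitor is degraded, and the dimers enter the nucleus. A second route runs through the kinase NIK (Map3k14), which drives processing of the Nfkb2 precursor and is itself kept low by TRAF2, TRAF3 and cIAP proteins. Several members are themselves well known NF-kB target genes, among them the inhibitors Nfkbia and Tnfaip3, which end the response in a feedback loop.

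Total counts ran between 16664474 and 38981516 per library, and the smallest count of any member in any library was 157. Zbtb7b, the check of the labels, stood at 0.698, 0.875 and 0.849 CPM across CD4 ThpokAD libraries, 24.04, 19.4 and 18.8 CPM across CD8 control libraries, and 38.5, 47.6 and 48.9 CPM across CD4 control libraries, so it was lowest in every CD4 ThpokAD library. Levels are counts scaled to a common library size (CPM), with normalisation by the trimmed mean of M-values (TMM). Cd8a averaged 49.6 ± 15.2 CPM in CD4 ThpokAD, 813 ± 88.3 CPM in CD8 control and 3.24 ± 0.824 CPM in CD4 control (mean ± SD, n = 3). It was called higher in CD4 ThpokAD libraries than in CD4 control. Cd4 averaged 635 ± 72.4 CPM in CD4 ThpokAD, 1.28 ± 1.02 CPM in CD8 control and 1354 ± 57.2 CPM in CD4 control. The edgeR test used below did not call Cd4 lower in CD4 ThpokAD libraries than in CD4 control. T cell markers summed to 6366 to 6657 in CD4 ThpokAD, 8159.5 to 10474 in CD8 control and 6632 to 6889.5 in CD4 control CPM, and B cell markers to 22.1 to 61.97 in CD4 ThpokAD, 39.5 to 62.98 in CD8 control and 33.9 to 51.6 in CD4 control CPM. Plasma cell markers summed to 374 to 427 in CD4 ThpokAD, 154 to 424 in CD8 control and 503 to 535 in CD4 control CPM. Erythroid markers summed to 7.18 to 133 in CD4 ThpokAD, 11.8 to 52.3 in CD8 control and 4.06 to 145 in CD4 control CPM. The T cell list includes Cd4, Cd8a and Cd8b1. Of 5 tested plasma cell markers, Irf4 and Xbp1 were called lower in CD8 control than in either CD4 group. Irf4 is also on the list of textbook NF-kB target genes used below. Of the B cell list, Cd79b was called higher in CD8 control than in CD4 control. Replicates of a group correlated at r = 0.892 to 0.932 on the log scale across genes and differed by more than sampling noise in every pair, so none was counted as a duplicate.

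The promoters of Tnfaip3, Nfkbia and Rel are shown as examples. These 3 members differ widely between the CD8 and CD4 libraries. Their promoter windows hold matches to the kappaB consensus, the DNA motif that NF-kB dimers bind. Other members, such as Nfkbid, also meet both conditions, and their windows are not shown. Sequences are from RefSeq (GRCm38.p6), 250 bases before to 50 bases after an annotated start, 5′ to 3′ on the strand of the gene, all on the minus strand. Capitals mark every match to the kappaB consensus on either strand (GGG, a purine, any base, A or T, a pair of pyrimidines, then CC).
Tnfaip3, chr10:19015361-19015660: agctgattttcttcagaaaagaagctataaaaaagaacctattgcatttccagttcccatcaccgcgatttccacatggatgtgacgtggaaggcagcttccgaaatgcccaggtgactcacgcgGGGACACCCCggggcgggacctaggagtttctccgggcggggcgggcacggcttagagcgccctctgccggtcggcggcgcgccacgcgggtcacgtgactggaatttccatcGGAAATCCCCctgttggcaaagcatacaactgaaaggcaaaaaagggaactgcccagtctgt
Nfkbia, chr12:55492598-55492897: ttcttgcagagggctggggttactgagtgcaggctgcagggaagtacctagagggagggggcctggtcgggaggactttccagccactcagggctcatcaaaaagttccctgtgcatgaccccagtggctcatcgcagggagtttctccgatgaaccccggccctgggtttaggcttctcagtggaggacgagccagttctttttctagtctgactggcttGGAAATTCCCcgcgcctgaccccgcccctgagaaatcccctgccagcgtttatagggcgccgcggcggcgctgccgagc
Rel, chr11:23770920-23771219: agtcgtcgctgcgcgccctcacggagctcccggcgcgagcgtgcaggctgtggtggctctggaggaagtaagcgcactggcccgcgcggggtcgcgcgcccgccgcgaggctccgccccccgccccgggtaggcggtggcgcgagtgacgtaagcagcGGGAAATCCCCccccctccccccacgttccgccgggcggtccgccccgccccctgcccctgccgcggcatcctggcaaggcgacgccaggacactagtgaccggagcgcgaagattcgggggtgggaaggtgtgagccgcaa
The Tnfaip3 window holds 2 matches, whose first bases lie 125 and 12 bases before the start, and an AP-1 motif (TGANTCA) that begins 136 bases before it. The Nfkbia window holds 1 match, 29 bases before the start. The Rel window holds 3 overlapping matches, 1 on the strand of the gene and 2 on the other, beginning 92 or 91 bases before the start. A second annotated window of Tnfaip3 holds no match.

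Promoter windows were found for 28 of the 33 members (38 windows in all); Nfkb1, Relb, Nfkbiz, Ikbkb and Malt1 were not matched. Of these 28 genes, 12 (42.9%) hold a kappaB consensus match, namely Nfkb2, Rel, Nfkbia, Nfkbid, Nfkbie, Bcl3, Map3k7, Traf3, Bcl10, Tnfaip3, Tnip1 and Cyld. Among all 27025 genes of the promoter table the share is 5.14%, and among 24 textbook NF-kB target genes that are no members it is 41.7%. The AP-1 motif TGANTCA, searched on both strands, is found in 17.9% of the members and 8.97% of all genes. Matches from 7 members are shown to compare their letters; each is written 5′ to 3′ on the strand where it matches, and all its bases are consensus bases.
Nfkb2: GGGAATTCCC
Tnip1: GGGAATTCCC
Nfkbid: GGGACTTCCC
Bcl3: GGGACTTCCC
Traf3: GGGGATTTCC
Map3k7: GGGAATTTCC
Cyld: GGGACTTTCC
Nfkb2 and Tnip1 share a palindromic form, and Nfkbid and Bcl3 share a form that is not palindromic. Map3k7 has the same 10 letters as Nfkbia, in the opposite orientation to its gene in both cases. Map3k14, Traf1, Peli1, Birc3 and Rela have a window without a consensus match. Of 16 members with a window that were called lower in CD8 control than in CD4 control, 9 hold a match, and of the 12 not called, 3 do. Of 8 called lower in CD4 ThpokAD libraries than in CD4 control, 2 hold a match, and of the 20 not called, 10 do. These shares carry no test. The matches describe the letters of the windows only and carry no measurement of binding.

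**Figure D1:**
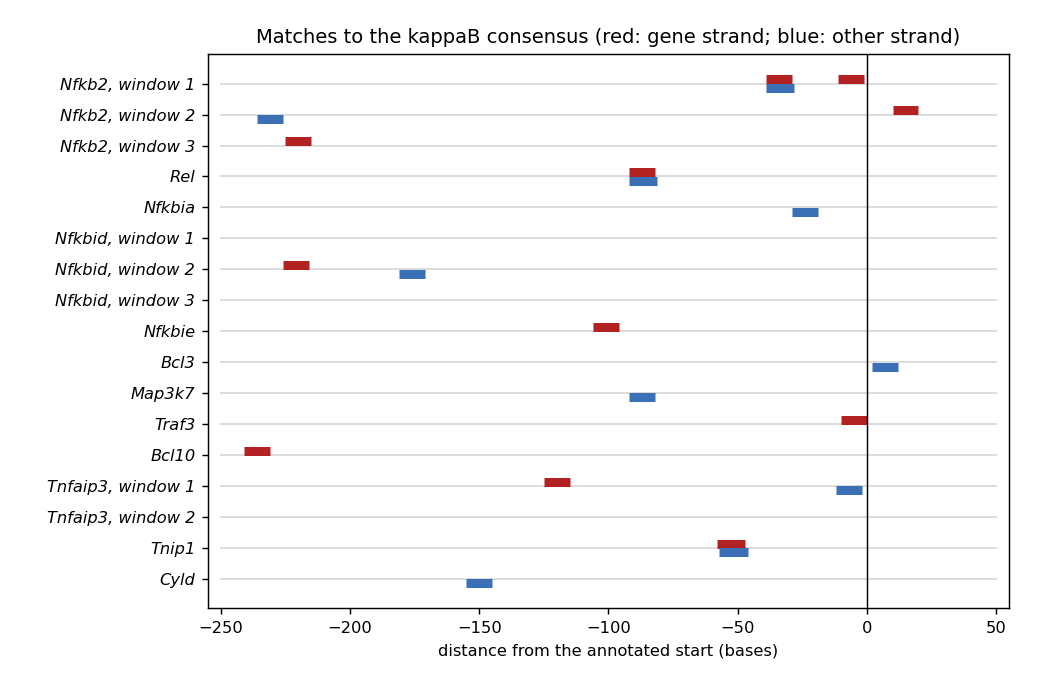
Positions of kappaB consensus matches in the promoter windows of the 12 members that hold one, in bases from the annotated start (x axis). Red bars are matches on the strand of the gene and blue bars on the other strand; Nfkb2 has matches in each of its 3 windows (the last 2 overlap and share a match), and Tnfaip3 in 1 of 2.

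Summed over the 33 members, levels were highest in CD4 control and lowest in CD8 control, with CD4 ThpokAD between them. The members together took 1.00 to 1.18% of all counts in CD4 ThpokAD libraries, 0.392 to 0.399% in CD8 control libraries and 1.43 to 1.53% in CD4 control libraries. Tnfaip3 had the highest CPM of all members in every CD4 library, and Peli1 in every CD8 control library. Without Tnfaip3, Nfkbia, Nfkbiz and Nfkbid, the other 29 members still summed to 3854 to 4013 CPM in CD4 ThpokAD, 3242 to 3295 CPM in CD8 control and 5624 to 6103 CPM in CD4 control. These are bulk samples, so fewer cells that express a gene and less RNA of it per cell cannot be told apart.

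Scaled by exon length, Nfkbia was the most abundant member in all 3 groups, at 919.6 ± 157 CPM per kb in CD4 ThpokAD, 154 ± 23.4 CPM per kb in CD8 control and 1049 ± 84.1 CPM per kb in CD4 control (mean ± SD, n = 3). Tnfaip3 was second in both CD4 groups and 15th of 33 in CD8 control, at 616 ± 87.7 CPM per kb in CD4 ThpokAD, 17.3 ± 5.58 CPM per kb in CD8 control and 722 ± 15.6 CPM per kb in CD4 control (mean ± SD, n = 3). Nfkbid and Nfkbiz followed in both CD4 groups, so the 4 most abundant members there were all inhibitors or modulators of NF-kB. In CD8 control the order after Nfkbia was Rela, Peli1 and Nfkbid.

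**Figure D2:**
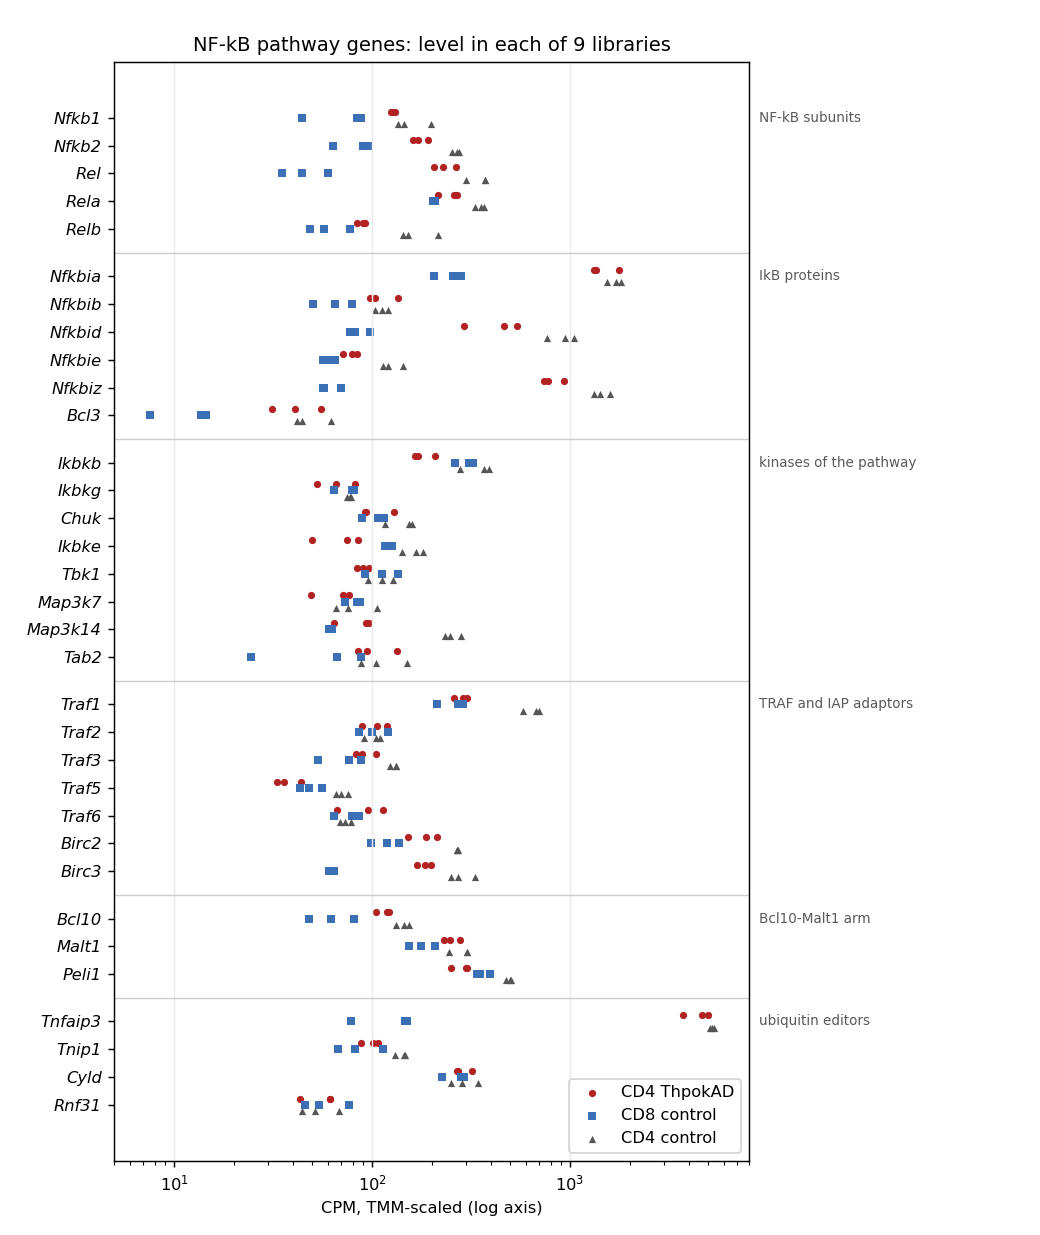
Level of each of the 33 members in each of the 9 libraries, in TMM-scaled CPM on a log axis, grouped by role. Red circles are CD4 ThpokAD, blue squares CD8 control and grey triangles CD4 control; the widest gap is that of Tnfaip3, with CD8 control libraries at 78.6 to 150.2 CPM and the 6 CD4 libraries between 3739 and 5337 CPM.

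In CD4 ThpokAD against CD4 control, 10 of the 33 members were called lower and 0 higher (edgeR quasi-likelihood test, adjusted p under 0.05 over all genes, Benjamini-Hochberg). At an unadjusted p under 0.05, 18 were lower and 0 higher, a cut for which no count over all genes is given. DESeq2 called 14 members lower and 0 higher, where it called 606 of all genes lower and 850 higher. With limma-voom 12 members were lower and 0 higher, where 191 of all genes were lower and 272 higher. Fold changes here are log2 values ± SE from the edgeR fit. Over all 15738 genes tested, edgeR called 0.928% lower and 1.81% higher, 2.74% in all. The median log2 fold change was -0.49 over the members and 0.00349 over all genes. Libraries of the 2 groups did not overlap for 20 members, all lower in CD4 ThpokAD; over all genes tested, 12.5% did not overlap and were lower, 13.2% did not overlap and were higher, and 25.7% did not overlap in all. The count of 10 dropped to 4, 5 and 4 when CD4 control replicates 1, 2 and 3 were left out in turn, and to 4, 6 and 6 without CD4 ThpokAD replicates 1, 2 and 3; Map3k14, Traf1 and Peli1 stayed called without any of the 9 libraries. Beside these calls, 6 of 9 tested NK cell markers (Eomes, Gzma, Klra4, Klra9, Klrb1c and Klre1) were called higher in CD4 ThpokAD. The same 6 were called higher in CD8 control than in CD4 control, where Fcer1g was called lower. The NK list summed to 1260.2 to 1705 in CD4 ThpokAD, 513 to 918 in CD8 control and 57.1 to 73.4 in CD4 control CPM. Of 10 tested myeloid markers, Itgam and Cd68 were called higher in CD4 ThpokAD than in CD4 control. The myeloid list summed to 337 to 415 in CD4 ThpokAD, 127 to 352 in CD8 control and 174 to 294 in CD4 control CPM. Ncr1, Klra8 and Klra4 were at 0 in CD4 control, Klra8 was at 0 in CD4 ThpokAD, and Mpo and Elane were at 0 in CD4 ThpokAD and CD8 control. Ly6g was at 0 in CD4 control. Their part in the members' differences was not tested.

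In CD8 control against CD4 control, 20 of the 33 members were called lower and 0 higher, where 6.55% of all genes were called lower, 5.13% higher and 11.7% in all. At an unadjusted p under 0.05 the members were 23 lower and 0 higher in edgeR, again with no count over all genes given. DESeq2 called 22 members lower and 0 higher, where it called 1781 of all genes lower and 1457 higher. With limma-voom 21 members were lower and 0 higher, where 1201 of all genes were lower and 915 higher. With libraries scaled by their totals alone, the median of all genes shifted to 0.12 from 0.01 and the split over all genes became 1140 higher and 879 lower, against 808 higher and 1031 lower with TMM; 19 members were then called lower. The members' median log2 fold change was -0.83 with TMM, and the libraries of 24 members did not overlap, all lower in CD8 control. Over all genes tested, 16.6% did not overlap and were lower, 17.3% did not overlap and were higher, and 33.9% did not overlap in all. Against the same CD8 libraries, CD4 ThpokAD had 11 members called higher and 2 lower, where 4.63% of all genes were called higher, 1.91% lower and 6.54% in all. Scaled by totals alone, that split over all genes was 631 higher and 423 lower, against 729 higher and 301 lower with TMM. The 3 comparisons share libraries, so their values are given side by side and not as independent results.

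Immediate early and heat shock genes rise within minutes of stimulation or of handling cells, and part of a list of both moved in the same comparisons. Of 29 such genes, 0 were called between CD4 ThpokAD and CD4 control, 20 were lower in CD8 control than in CD4 control, and 19 were higher in CD4 ThpokAD than in CD8 control (edgeR). Hspa1a was the only heat shock gene called in either comparison with CD8 control, and the other called genes were immediate early genes. For the count of 0, the unadjusted test at p under 0.05 gave 1 higher and 4 lower, DESeq2 0 higher and 3 lower, and limma-voom 0 higher and 2 lower. Their summed level was 15308 to 19314 in CD4 ThpokAD, 5054 to 5694 in CD8 control and 18060.1 to 20253 in CD4 control CPM, and all 29 had counts in each group. Nr4a1, an immediate early nuclear receptor of T cells, was at 1689.9, 2113 and 2317 CPM across CD4 ThpokAD libraries, 1.92, 7.36 and 4.41 CPM across CD8 control libraries, and 2117, 2434 and 2358 CPM across CD4 control libraries. Of the dendritic cell list, the MHC class II genes H2-Aa, H2-Ab1 and H2-Eb1 were lower in CD8 control than in either CD4 group; the list of 10 summed to 360.2 to 787 in CD4 ThpokAD, 112 to 158 in CD8 control and 363 to 797 in CD4 control CPM, with Siglech at 0 in both CD4 groups. The part of either list in the members' differences was not tested.

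**Figure D3:**
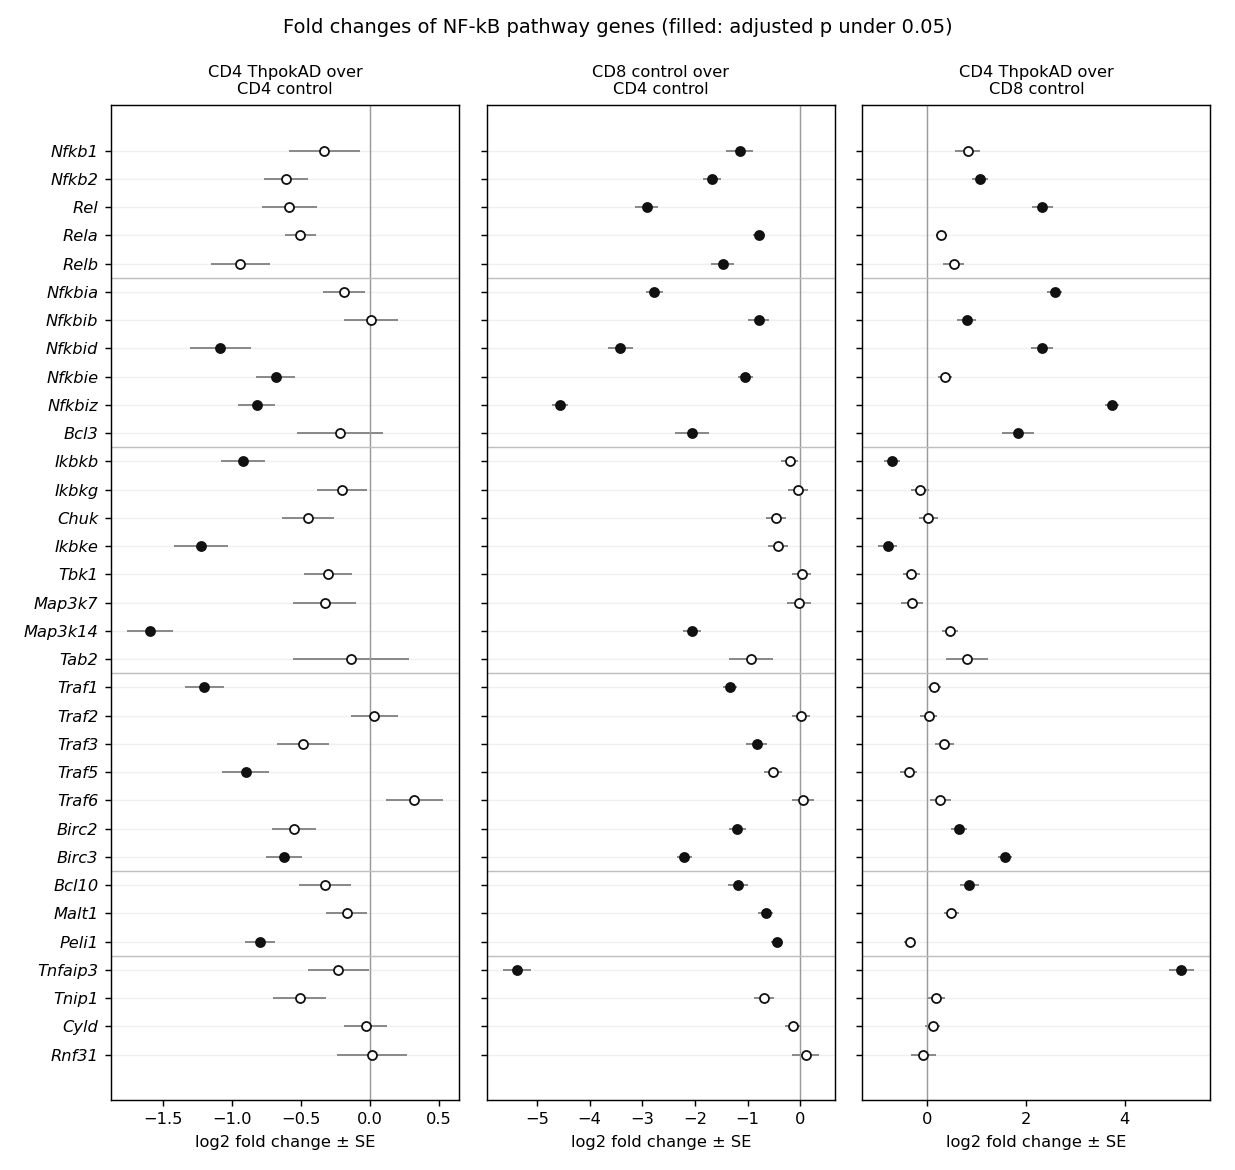
Log2 fold change ± SE of each member in the 3 comparisons, from edgeR's quasi-likelihood fit over all genes; filled points have an adjusted p under 0.05, and the x axes differ between the panels. In the left panel no filled point lies above 0, in the middle panel Tnfaip3 and Nfkbiz lie lowest at -5.38 and -4.57, and in the right panel Ikbkb and Ikbke are the filled points below 0.

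NF-kB subunits were lowest in CD8 control: all 5 were called lower there than in CD4 control, 0 of 5 were called between CD4 ThpokAD and CD4 control, and Rel and Nfkb2 were called higher in CD4 ThpokAD than in CD8 control. For the count of 0 in edgeR, 4 of 5 were lower at an unadjusted p under 0.05, and DESeq2 called 3 lower and limma-voom 2. The family summed to 823 to 929.6 CPM in CD4 ThpokAD, 425 to 499.97 CPM in CD8 control and 1272 to 1318 CPM in CD4 control. Rel encodes c-Rel, a subunit used chiefly in lymphocytes. It stood at 264, 205 and 228 CPM across CD4 ThpokAD libraries, 44.4, 59.7 and 34.9 CPM across CD8 control libraries, and 298, 374 and 374 CPM across CD4 control libraries. Every CD8 control library lay far below every CD4 library, while the CD4 ThpokAD and CD4 control libraries were set closer, without overlap. Rel was 7.53-fold lower in CD8 control than in CD4 control (log2 fold change -2.91 ± 0.22, adjusted p = 5.83e-05) and 5.02-fold higher in CD4 ThpokAD than in CD8 control (log2 fold change 2.33 ± 0.21, adjusted p = 0.0003). Against CD4 control, the Rel difference in CD4 ThpokAD did not pass the test (log2 fold change -0.59 ± 0.20, adjusted p = 0.192).

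Nfkb2, the precursor of p52 in the NIK route, measured 191, 171 and 161 CPM across CD4 ThpokAD libraries, 63.8, 95.9 and 89.7 CPM across CD8 control libraries, and 275, 269 and 253 CPM across CD4 control libraries. The 3 groups did not overlap. The gene was lower in CD8 control than in CD4 control (log2 fold change -1.67 ± 0.16, adjusted p = 0.000265) and higher in CD4 ThpokAD than in CD8 control (log2 fold change 1.07 ± 0.16, adjusted p = 0.00568); between CD4 ThpokAD and CD4 control it had log2 fold change -0.61 ± 0.16, adjusted p = 0.0924. Exons of AC114539.1 and Psd on the other strand overlap 11.6% and 6.52% of its exon length, and reads of the 2 strands cannot be told apart. Relb, the usual partner of p52, measured 89.9, 83.6 and 92.1 CPM across CD4 ThpokAD libraries, 77.5, 57.02 and 48.7 CPM across CD8 control libraries, and 214, 143 and 153 CPM across CD4 control libraries. Its level was lower in CD8 control than in CD4 control (log2 fold change -1.48 ± 0.21, adjusted p = 0.00255). In CD4 ThpokAD every library also lay below every CD4 control library, at log2 fold change -0.94 ± 0.21, adjusted p = 0.0543, which missed the threshold.

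Rela encodes p65, the subunit of the classical dimer, and was the most abundant subunit per kb of exon in all groups, at 80.9 ± 9.37 CPM per kb in CD4 ThpokAD, 66.5 ± 0.802 CPM per kb in CD8 control and 115 ± 6.08 CPM per kb in CD4 control (mean ± SD, n = 3). Its levels were 259.8, 270.01 and 216 CPM across CD4 ThpokAD libraries, 203, 203 and 207 CPM across CD8 control libraries, and 332, 369 and 357 CPM across CD4 control libraries. CD8 control libraries lay close together below CD4 control (log2 fold change -0.79 ± 0.11, adjusted p = 0.00238), and CD4 ThpokAD libraries also lay below CD4 control without overlap, at log2 fold change -0.50 ± 0.11, adjusted p = 0.0525, which also missed it. Nfkb1, which encodes the p50 precursor, measured 124, 130.4 and 126 CPM across CD4 ThpokAD libraries, 87.8, 84.4 and 44.1 CPM across CD8 control libraries, and 199, 144 and 136 CPM across CD4 control libraries. It was lower in CD8 control (log2 fold change -1.15 ± 0.26, adjusted p = 0.0224); the call did not hold without CD4 control replicate 1 (adjusted p = 0.0824) or CD4 control replicate 2 (adjusted p = 0.0535). The CD4 ThpokAD libraries of Nfkb1 were nearly alike and lay below those of CD4 control, with log2 fold change -0.33 ± 0.26, adjusted p = 0.625.

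The make-up of the subunit transcripts was computed per kb of exon. CD8 control had smaller shares of Rel and Nfkb2 and a larger share of Rela than both CD4 groups. The ranges of the CD4 groups overlapped for each of these genes. Rel made up 16.98 ± 1.87% in CD4 ThpokAD, 5.48 ± 1.27% in CD8 control and 16.9 ± 2.29% in CD4 control of the 5 subunits' length-scaled sum. Rela made up 44.1 ± 3.16% in CD4 ThpokAD, 59.2 ± 3.02% in CD8 control and 41.6 ± 2.51% in CD4 control. The CD8 control range of Rel did not overlap that of either CD4 group, and its range of Rela lay above both. Nfkb2 made up 20.7 ± 0.612% in CD4 ThpokAD, 16.1 ± 3.32% in CD8 control and 20.9 ± 0.611% in CD4 control. The CD8 control range of Nfkb2 lay below both CD4 groups. Relb made up 12.5 ± 1.28% in CD4 ThpokAD, 13.9 ± 3.23% in CD8 control and 15.8 ± 3.45% in CD4 control, with overlapping ranges. Nfkb1 made up 5.76 ± 0.443% in CD4 ThpokAD, 5.28 ± 1.65% in CD8 control and 4.79 ± 0.969% in CD4 control, also with overlapping ranges. These shares are given as descriptions, with no test. They depend on the annotated exon lengths, such as 12061 bases for Nfkb1 and 3072 for Rela.

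**Figure D4:**
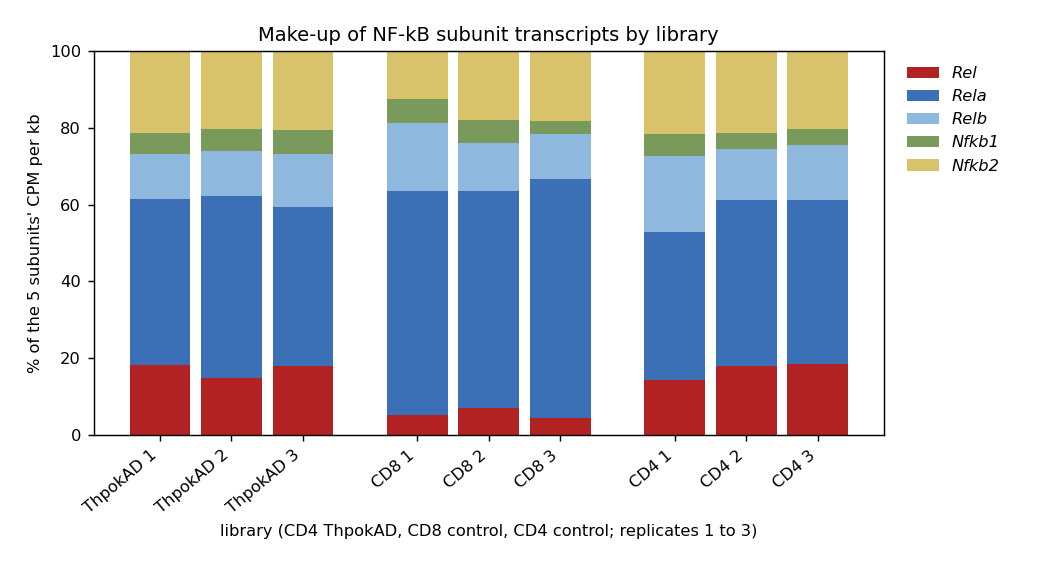
Share of each NF-kB subunit in the summed CPM per kb of the 5 subunits, in percent, for each library. Rel takes 14.3 to 18.4% in the 6 CD4 libraries and 4.34 to 6.85% in the 3 CD8 control libraries.

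IkB proteins included the members with the widest spread among groups after Tnfaip3. All 6 were called lower in CD8 control than in CD4 control, and 3 of 6 (Nfkbid, Nfkbie and Nfkbiz) were called lower in CD4 ThpokAD libraries than in CD4 control. The family summed to 2658 to 3496 CPM in CD4 ThpokAD, 517 to 541 CPM in CD8 control and 3913 to 4556 CPM in CD4 control. Nfkbia encodes IkBalpha, the inhibitor that is resynthesised after each round of NF-kB activation. It measured 1352, 1318 and 1771 CPM across CD4 ThpokAD libraries, 280.3, 206 and 257 CPM across CD8 control libraries, and 1543, 1714 and 1810.0 CPM across CD4 control libraries. CD4 ThpokAD and CD4 control overlapped (log2 fold change -0.19 ± 0.15, adjusted p = 0.642), and both lay well above CD8 control. Nfkbia was 6.81-fold lower in CD8 control than in CD4 control (log2 fold change -2.77 ± 0.16, adjusted p = 1.57e-05) and 5.97-fold higher in CD4 ThpokAD than in CD8 control (log2 fold change 2.58 ± 0.16, adjusted p = 3.96e-05).

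Nfkbiz and Nfkbid encode IkBzeta and IkBNS, atypical nuclear IkB proteins that modulate NF-kB at chromatin. Nfkbiz measured 775, 742 and 931 CPM across CD4 ThpokAD libraries, 56.6, 69.4 and 57.03 CPM across CD8 control libraries, and 1316, 1594 and 1424 CPM across CD4 control libraries. The 3 groups were fully separate, with CD4 ThpokAD nearer to CD4 control. Nfkbiz was 23.7-fold lower in CD8 control than in CD4 control (log2 fold change -4.57 ± 0.15, adjusted p = 1.9e-06), 13.4-fold higher in CD4 ThpokAD than in CD8 control (log2 fold change 3.74 ± 0.15, adjusted p = 2.73e-06) and 1.77-fold lower in CD4 ThpokAD libraries than in CD4 control (log2 fold change -0.82 ± 0.13, adjusted p = 0.0136). For CD4 ThpokAD against CD4 control, the call did not hold without CD4 control replicate 2 (adjusted p = 0.0605), CD4 ThpokAD replicate 1 (adjusted p = 0.0637) or CD4 ThpokAD replicate 2 (adjusted p = 0.0534).

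Nfkbid measured 293, 463 and 538 CPM across CD4 ThpokAD libraries, 77.8, 97.7 and 82.2 CPM across CD8 control libraries, and 765, 939 and 1046 CPM across CD4 control libraries. These groups were also fully separate, and CD4 ThpokAD replicate 1 was the lowest of its group. Nfkbid was 10.7-fold lower in CD8 control than in CD4 control (log2 fold change -3.42 ± 0.24, adjusted p = 4.28e-05), 5.02-fold higher in CD4 ThpokAD than in CD8 control (log2 fold change 2.33 ± 0.23, adjusted p = 0.000518) and 2.13-fold lower in CD4 ThpokAD libraries than in CD4 control (log2 fold change -1.09 ± 0.22, adjusted p = 0.0366). In the last of these, the call did not hold without any 1 of the libraries other than CD4 ThpokAD replicate 3 and CD8 control replicate 2, at adjusted p of 0.0563 to 0.123.

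Nfkbie, which encodes the cytoplasmic inhibitor IkBepsilon, measured 84.4, 71.5 and 79.2 CPM across CD4 ThpokAD libraries, 62.04, 56.5 and 65.1 CPM across CD8 control libraries, and 144, 114 and 120.4 CPM across CD4 control libraries. CD4 control lay above both other groups. The gene was lower in CD8 control (log2 fold change -1.04 ± 0.14, adjusted p = 0.00196) and in CD4 ThpokAD (log2 fold change -0.69 ± 0.14, adjusted p = 0.0404) than in CD4 control, and in the CD4 ThpokAD comparison the call did not hold without any 1 of the libraries other than CD8 control replicate 2 and CD8 control replicate 3, at adjusted p of 0.0664 to 0.15. Bcl3, an atypical IkB protein that can act as a coactivator with p50 or p52, had the lowest mean CPM of the members in CD8 control and in CD4 control, at 55.6, 31.1 and 40.8 CPM across CD4 ThpokAD libraries, 13.7, 7.61 and 14.4 CPM across CD8 control libraries, and 41.6, 62.4 and 44.3 CPM across CD4 control libraries. Its CD4 groups overlapped (log2 fold change -0.22 ± 0.31, adjusted p = 0.826). Its level was lower in CD8 control than in CD4 control (log2 fold change -2.05 ± 0.32, adjusted p = 0.00405) and higher in CD4 ThpokAD than in CD8 control (log2 fold change 1.83 ± 0.32, adjusted p = 0.0112).

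Nfkbib, which encodes IkBbeta, measured 97.9, 104 and 136 CPM across CD4 ThpokAD libraries, 50.2, 79.2 and 65.3 CPM across CD8 control libraries, and 104, 121 and 112 CPM across CD4 control libraries. The 2 CD4 groups overlapped, with log2 fold change 0.01 ± 0.20, adjusted p = 0.995. It was lower in CD8 control than in CD4 control (log2 fold change -0.79 ± 0.20, adjusted p = 0.0329; the call did not hold without any 1 of the libraries other than CD4 ThpokAD replicate 1, CD4 ThpokAD replicate 3 and CD8 control replicate 2, at adjusted p of 0.0523 to 0.109) and higher in CD4 ThpokAD than in CD8 control (log2 fold change 0.80 ± 0.20, adjusted p = 0.047; the call did not hold without any 1 of the libraries other than CD8 control replicate 2, at adjusted p of 0.0748 to 0.135). Exons of Ccer2 on the other strand cover 14.5% of its exon length. Per kb of exon, Nfkbia made up 67.6 ± 1.81% in CD4 ThpokAD, 59.6 ± 6.09% in CD8 control and 57.02 ± 0.907% in CD4 control of the 6 IkB transcripts. Nfkbiz made up 12.01 ± 0.647% in CD4 ThpokAD, 4.75 ± 0.843% in CD8 control and 15.7 ± 1.13% in CD4 control, and its ranges in the 3 groups did not overlap. Nfkbib made up 3.81 ± 0.0811% in CD4 ThpokAD, 11.7 ± 3.23% in CD8 control and 2.82 ± 0.164% in CD4 control. Nfkbie made up 1.92 ± 0.340% in CD4 ThpokAD, 7.80 ± 0.273% in CD8 control and 2.28 ± 0.498% in CD4 control. For Nfkbib and Nfkbie the CD8 control range lay above both CD4 groups.

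**Figure D5:**
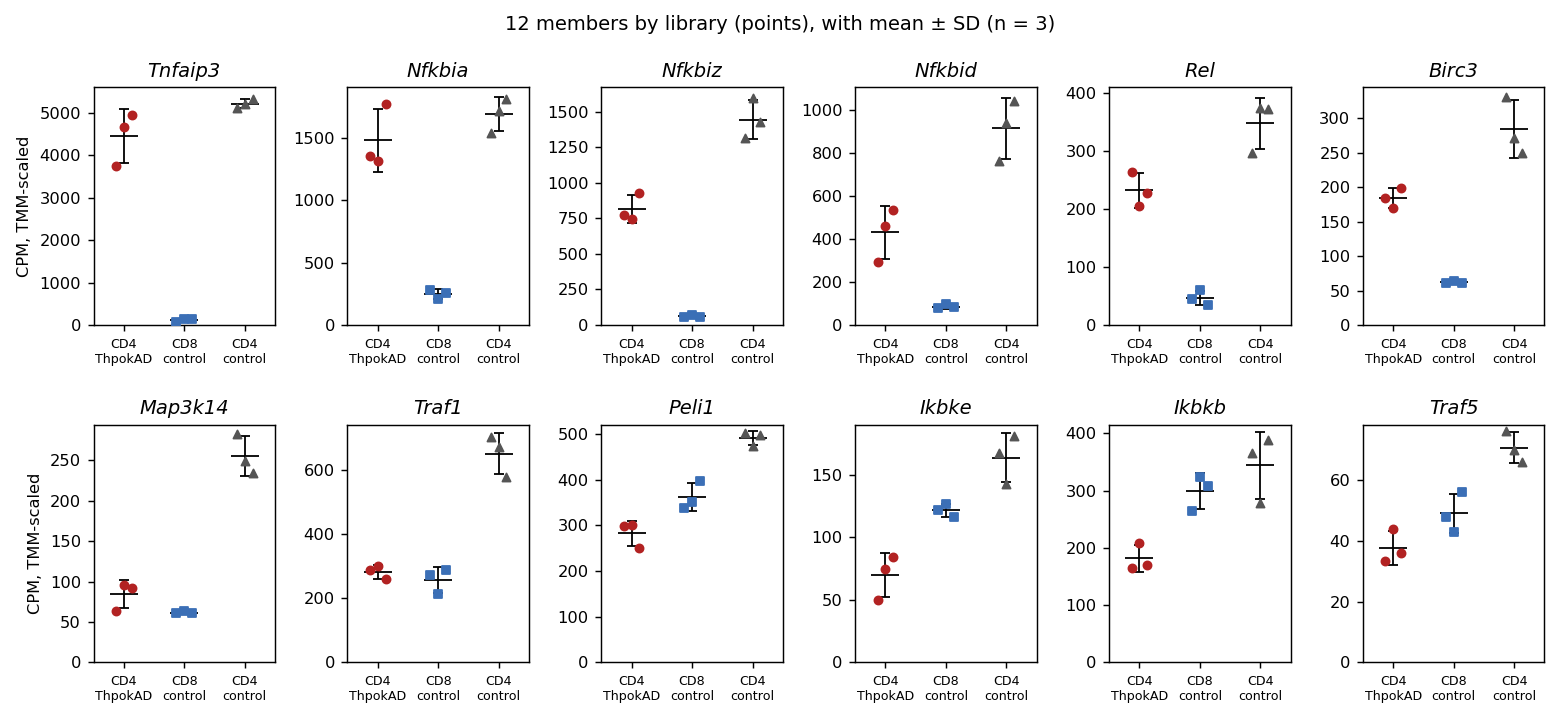
TMM-scaled CPM of 12 members by library (points), with mean ± SD of the 3 libraries of each group (bars); every y axis starts at 0. In the upper row CD8 control lies lowest in all 6 genes; in the lower row CD4 control lies highest, except for 1 Ikbkb library that falls among the CD8 control libraries.

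Of the 8 kinases and kinase partners, Map3k14 was called lower in CD8 control than in CD4 control, and Map3k14, Ikbke and Ikbkb were called lower in CD4 ThpokAD libraries than in CD4 control. The family summed to 751 to 796 CPM in CD4 ThpokAD, 882 to 955 CPM in CD8 control and 1112 to 1399 CPM in CD4 control, so CD4 ThpokAD had the lowest sums. Map3k14 encodes NIK, the kinase that starts the Nfkb2 route (chr11:103219762-103267472, minus strand). It measured 64.3, 96.1 and 92.8 CPM across CD4 ThpokAD libraries, 60.8, 63.1 and 60.7 CPM across CD8 control libraries, and 283, 249 and 234 CPM across CD4 control libraries. Both CD4 ThpokAD and CD8 control lay far below CD4 control, with the CD4 ThpokAD libraries slightly above those of CD8 control. Map3k14 was 3.03-fold lower in CD4 ThpokAD (log2 fold change -1.60 ± 0.17, adjusted p = 0.00177) and 4.15-fold lower in CD8 control (log2 fold change -2.05 ± 0.17, adjusted p = 0.000111) than in CD4 control. Between CD4 ThpokAD and CD8 control it had log2 fold change 0.46 ± 0.17, adjusted p = 0.153.

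Ikbkb and Ikbke were the 2 members that edgeR called lower in CD4 ThpokAD than in both other groups; DESeq2 also called Peli1 lower in CD4 ThpokAD than in CD8 control (adjusted p = 0.0216). Ikbkb encodes IKKbeta, the main IkB kinase of the classical route, and measured 165, 209 and 171 CPM across CD4 ThpokAD libraries, 264, 324 and 308 CPM across CD8 control libraries, and 366, 278 and 388 CPM across CD4 control libraries. CD4 ThpokAD libraries were the 3 lowest, whereas CD8 control and CD4 control overlapped. The gene was lower in CD4 ThpokAD libraries than in CD4 control (log2 fold change -0.92 ± 0.16, adjusted p = 0.0197) and than in CD8 control (log2 fold change -0.72 ± 0.16, adjusted p = 0.0324), and CD8 control had log2 fold change -0.20 ± 0.16, adjusted p = 0.48 against CD4 control. Against CD4 control the call did not hold without CD4 ThpokAD replicate 1 or 3 or CD4 control replicate 1 or 3, at adjusted p of 0.0712 to 0.0863, and against CD8 control the call did not hold without CD4 ThpokAD replicate 1 or 3, CD8 control replicate 2 or 3 or CD4 control replicate 1, at adjusted p of 0.0552 to 0.107.

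Ikbke encodes IKKepsilon, a related kinase that also acts in interferon induction. It measured 49.99, 74.98 and 84.6 CPM across CD4 ThpokAD libraries, 122, 127 and 116 CPM across CD8 control libraries, and 168, 142 and 181 CPM across CD4 control libraries. The 3 groups did not overlap, with CD4 ThpokAD lowest. Its level was lower in CD4 ThpokAD libraries than in CD4 control (log2 fold change -1.23 ± 0.20, adjusted p = 0.0135) and than in CD8 control (log2 fold change -0.80 ± 0.19, adjusted p = 0.0442), and CD8 control had log2 fold change -0.43 ± 0.19, adjusted p = 0.201 against CD4 control. Against CD4 control the call did not hold without CD4 control replicate 1 (adjusted p = 0.0558) or CD4 control replicate 3 (adjusted p = 0.0549), and against CD8 control the call did not hold without any 1 of the libraries other than CD4 ThpokAD replicate 3, at adjusted p of 0.0652 to 0.106.

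Tbk1, a kinase close to IKKepsilon, was the most abundant kinase per kb in CD4 ThpokAD and CD8 control. That ranking depends on exon length, which covers every annotated exon and is 3910 bases for Tbk1 and 19078 for Ikbkb. In mean CPM, Ikbkb lay above Tbk1 in each group. The means were 182 against 90.3 in CD4 ThpokAD, 299 against 113 in CD8 control and 344 against 112 in CD4 control. Tbk1 measured 90.05, 96.9 and 84.1 CPM across CD4 ThpokAD libraries, 112, 92.05 and 136 CPM across CD8 control libraries, and 127, 94.9 and 113 CPM across CD4 control libraries. All 3 groups overlapped, with log2 fold change -0.30 ± 0.17, adjusted p = 0.47 for CD4 ThpokAD against CD4 control. None of Chuk (IKKalpha), Ikbkg (NEMO, the regulatory subunit of IKK), Map3k7 (TAK1, which activates IKK) and Tab2 (a TAK1 partner) was called in any comparison. Chuk ranged over 91.99 to 129 CPM in CD4 ThpokAD, 88.5 to 114 CPM in CD8 control and 116 to 159 CPM in CD4 control, and Ikbkg over 53.03 to 82.2 CPM in CD4 ThpokAD, 64.1 to 80.9 CPM in CD8 control and 74.99 to 78.1 CPM in CD4 control. Map3k7 ranged over 49.01 to 76.6 CPM in CD4 ThpokAD, 72.9 to 86.9 CPM in CD8 control and 65.7 to 106 CPM in CD4 control. Tab2 ranged over 84.99 to 133 CPM in CD4 ThpokAD, 24.4 to 88.4 CPM in CD8 control and 88.3 to 151 CPM in CD4 control.

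TRAF and IAP adaptors couple receptors of the TNF family to the pathway. Of 7, Traf1, Traf5 and Birc3 were called lower in CD4 ThpokAD libraries than in CD4 control, and Traf1, Traf3, Birc2 and Birc3 were called lower in CD8 control. The family summed to 937 to 1047 CPM in CD4 ThpokAD, 721 to 752 CPM in CD8 control and 1468 to 1696 CPM in CD4 control. Traf1 (chr2:34941750-34961772, minus strand), itself a textbook NF-kB target, measured 287, 301 and 259 CPM across CD4 ThpokAD libraries, 271, 213 and 289 CPM across CD8 control libraries, and 701, 672 and 577 CPM across CD4 control libraries. CD4 ThpokAD and CD8 control overlapped and both lay far below CD4 control. Traf1 was 2.30-fold lower in CD4 ThpokAD (log2 fold change -1.20 ± 0.14, adjusted p = 0.00291) and 2.52-fold lower in CD8 control (log2 fold change -1.34 ± 0.14, adjusted p = 0.000438) than in CD4 control, with log2 fold change 0.13 ± 0.14, adjusted p = 0.674 between CD4 ThpokAD and CD8 control.

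Birc3 and Birc2 encode cIAP2 and cIAP1, ubiquitin ligases that join TRAF complexes. Birc3 measured 185, 169 and 199 CPM across CD4 ThpokAD libraries, 60.6, 64.2 and 60.8 CPM across CD8 control libraries, and 331, 272 and 249.6 CPM across CD4 control libraries. The groups were fully separate, with CD4 ThpokAD in the middle. It was 4.59-fold lower in CD8 control than in CD4 control (log2 fold change -2.20 ± 0.14, adjusted p = 2.41e-05), higher in CD4 ThpokAD than in CD8 control (log2 fold change 1.57 ± 0.13, adjusted p = 0.000205), and lower in CD4 ThpokAD libraries than in CD4 control (log2 fold change -0.62 ± 0.13, adjusted p = 0.0427), where the call did not hold without any 1 of the libraries other than CD8 control replicate 3, at adjusted p of 0.0583 to 0.145. Birc2 measured 188, 213 and 151 CPM across CD4 ThpokAD libraries, 98.6, 137 and 119 CPM across CD8 control libraries, and 271, 269 and 269 CPM across CD4 control libraries. Its groups were separate in the same order. Birc2 was lower in CD8 control than in CD4 control (log2 fold change -1.19 ± 0.16, adjusted p = 0.00176) and higher in CD4 ThpokAD than in CD8 control (log2 fold change 0.64 ± 0.16, adjusted p = 0.048), where the call did not hold without any 1 of the libraries other than CD4 ThpokAD replicate 3, at adjusted p of 0.0562 to 0.145. Against CD4 control, CD4 ThpokAD had log2 fold change -0.55 ± 0.16, adjusted p = 0.123.

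Traf5, an adaptor of Ox40 and related receptors, measured 33.3, 43.97 and 36.02 CPM across CD4 ThpokAD libraries, 47.995, 43.1 and 56.04 CPM across CD8 control libraries, and 76.04, 69.9 and 65.9 CPM across CD4 control libraries. CD4 control lay above both other groups, which overlapped. It was lower in CD4 ThpokAD libraries than in CD4 control (log2 fold change -0.90 ± 0.17, adjusted p = 0.0294), where the call did not hold without any 1 of the libraries other than CD4 ThpokAD replicate 2, CD8 control replicate 2 and CD8 control replicate 3, at adjusted p of 0.0517 to 0.114. CD8 control had log2 fold change -0.53 ± 0.17, adjusted p = 0.085 against CD4 control. Traf3, a brake on NIK, measured 83.2, 105 and 88.6 CPM across CD4 ThpokAD libraries, 76.8, 88.2 and 53.1 CPM across CD8 control libraries, and 133, 132 and 123 CPM across CD4 control libraries. The gene was lower in CD8 control than in CD4 control (log2 fold change -0.83 ± 0.19, adjusted p = 0.0245), where the call did not hold without CD8 control replicate 1 or CD4 control replicate 1, 2 or 3, at adjusted p of 0.057 to 0.0813; CD4 ThpokAD had log2 fold change -0.49 ± 0.19, adjusted p = 0.258 against CD4 control. Traf2 and Traf6, adaptors of TNF receptors and of interleukin 1 and Toll-like receptors, were not called in any comparison. Traf2 ranged over 89.01 to 119 CPM in CD4 ThpokAD, 86.5 to 121 CPM in CD8 control and 90.99 to 110.2 CPM in CD4 control. Traf6 ranged over 66.4 to 114 CPM in CD4 ThpokAD, 64.1 to 86.3 CPM in CD8 control and 68.9 to 78.6 CPM in CD4 control.

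The Bcl10-Malt1 arm carries the antigen receptor signal to IKK. Peli1 is grouped with it here as a ubiquitin ligase that restrains T cell activation in mice (chr11:21091291-21150323, plus strand). It measured 298, 300.2 and 251 CPM across CD4 ThpokAD libraries, 338, 351 and 396 CPM across CD8 control libraries, and 503, 474 and 498 CPM across CD4 control libraries. The 3 groups were fully separate, with CD4 ThpokAD lowest. Peli1 was 1.74-fold lower in CD4 ThpokAD libraries than in CD4 control (log2 fold change -0.80 ± 0.11, adjusted p = 0.00702). It was also lower in CD8 control than in CD4 control (log2 fold change -0.44 ± 0.11, adjusted p = 0.0329), where the call did not hold without any 1 of the libraries other than CD4 ThpokAD replicate 2, CD4 ThpokAD replicate 3 and CD8 control replicate 3, at adjusted p of 0.0538 to 0.107 and scaling by library totals gave 0.0858. Between CD4 ThpokAD and CD8 control it had log2 fold change -0.35 ± 0.11, adjusted p = 0.101.

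Bcl10, an adaptor that binds Malt1, measured 122, 104 and 119 CPM across CD4 ThpokAD libraries, 61.96, 48.01 and 81.3 CPM across CD8 control libraries, and 132, 154 and 146 CPM across CD4 control libraries. CD8 control lay below both CD4 groups. Its level was lower in CD8 control than in CD4 control (log2 fold change -1.18 ± 0.19, adjusted p = 0.00474) and higher in CD4 ThpokAD than in CD8 control (log2 fold change 0.85 ± 0.19, adjusted p = 0.033), where the call did not hold without any 1 of the libraries other than CD8 control replicate 3, at adjusted p of 0.0555 to 0.116. Between the CD4 groups it had log2 fold change -0.33 ± 0.19, adjusted p = 0.474. Malt1, a scaffold with protease activity, measured 247, 230.4 and 277 CPM across CD4 ThpokAD libraries, 209, 176 and 154 CPM across CD8 control libraries, and 302, 246 and 302 CPM across CD4 control libraries. The CD4 groups overlapped (log2 fold change -0.17 ± 0.15, adjusted p = 0.674), and CD8 control was lower than CD4 control (log2 fold change -0.66 ± 0.15, adjusted p = 0.0217), where the call did not hold without CD8 control replicate 2 or 3 or CD4 control replicate 1 or 3, at adjusted p of 0.0545 to 0.0809.

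Ubiquitin editors were dominated by Tnfaip3, which encodes A20, an enzyme that removes and adds ubiquitin on pathway proteins and ends signalling (chr10:19000910-19015657, minus strand; gene coordinates are those of GENCODE M21 on GRCm38). Tnfaip3 measured 3739, 4657 and 4956 CPM across CD4 ThpokAD libraries, 78.6, 150.2 and 146 CPM across CD8 control libraries, and 5113, 5204 and 5337 CPM across CD4 control libraries. Each CD4 library held many times the level of any CD8 control library. The gene was 41.7-fold lower in CD8 control than in CD4 control (log2 fold change -5.38 ± 0.27, adjusted p = 7.27e-06) and 35.6-fold higher in CD4 ThpokAD than in CD8 control (log2 fold change 5.15 ± 0.26, adjusted p = 1.95e-05). Between the CD4 groups the libraries did not overlap, but the difference did not pass the test (log2 fold change -0.23 ± 0.22, adjusted p = 0.71).

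Cyld and Rnf31 were not called in any comparison, and Tnip1 was not called in the edgeR test used here. Tnip1, a partner of A20, ranged over 88.1 to 107 CPM in CD4 ThpokAD, 67.4 to 114 CPM in CD8 control and 130.5 to 147 CPM in CD4 control. Its CD8 control difference from CD4 control was close to the threshold (log2 fold change -0.69 ± 0.19, adjusted p = 0.0509), and Tnip1 was called lower there by DESeq2 (adjusted p = 0.00284) and by limma-voom (adjusted p = 0.0445). Without CD8 control replicate 3, edgeR gave Tnip1 an adjusted p of 0.00907 there. In the same edgeR test with all libraries, CD4 ThpokAD had log2 fold change -0.51 ± 0.19, adjusted p = 0.232 against CD4 control. Cyld, a deubiquitinase that opposes NF-kB activation, ranged over 269 to 318 CPM in CD4 ThpokAD, 226 to 292 CPM in CD8 control and 249.7 to 344 CPM in CD4 control. Rnf31, the HOIP ligase that builds linear ubiquitin chains, ranged over 43.3 to 61.4 CPM in CD4 ThpokAD, 45.8 to 76.3 CPM in CD8 control and 44.5 to 68.4 CPM in CD4 control. For Cyld and Rnf31 all groups overlapped.

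Of 34 further pathway genes, 0 were called between CD4 ThpokAD and CD4 control, with a median log2 fold change of -0.00685. At an unadjusted p under 0.05 edgeR gave 5 higher and 2 lower; DESeq2 called 3 higher and 1 lower, and limma-voom 0. In CD8 control against CD4 control, 3 were called higher (Irak4, Myd88 and Sharpin) and 3 lower (Irak2, Tank and Traf4). Traf4 averaged 58.1 ± 7.01 CPM in CD4 ThpokAD, 25.3 ± 5.81 CPM in CD8 control and 64.9 ± 6.31 CPM in CD4 control, with log2 fold change -1.36 ± 0.21, adjusted p = 0.00338 for CD8 control against CD4 control. In CD4 ThpokAD against CD8 control, Traf4, Tank and Irak2 were called higher and Prkcq, which encodes protein kinase C theta of the antigen receptor pathway, was called lower. Prkcq averaged 389 ± 24.3 CPM in CD4 ThpokAD, 621 ± 21.997 CPM in CD8 control and 488 ± 70.7 CPM in CD4 control, with log2 fold change -0.67 ± 0.12, adjusted p = 0.0131 for CD4 ThpokAD against CD8 control.

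Of 22 receptors that signal through NF-kB, 21 were tested. In CD4 ThpokAD against CD4 control, Il18rap, a chain of the interleukin 18 receptor, was called higher, and Tnfrsf4 and Cd28 were called lower. Il18rap averaged 481 ± 94.9 CPM in CD4 ThpokAD, 625 ± 63.2 CPM in CD8 control and 177 ± 25.9 CPM in CD4 control, with log2 fold change 1.44 ± 0.17, adjusted p = 0.00291 for CD4 ThpokAD against CD4 control. Tnfrsf4, the Ox40 gene whose expression the Cre follows, averaged 81.1 ± 24.2 CPM in CD4 ThpokAD, 1.44 ± 0.943 CPM in CD8 control and 378 ± 53.3 CPM in CD4 control, with log2 fold change -2.22 ± 0.39, adjusted p = 0.0201 for CD4 ThpokAD against CD4 control. The costimulatory receptor Cd28 averaged 1180.5 ± 64.6 CPM in CD4 ThpokAD, 455 ± 43.6 CPM in CD8 control and 1645 ± 121 CPM in CD4 control, with log2 fold change -0.48 ± 0.10, adjusted p = 0.0447 for CD4 ThpokAD against CD4 control. In CD8 control against CD4 control, Il18rap was called higher, and Cd28, Tnfrsf4, Tnfrsf1b, Tnfrsf18 and Tnfrsf9 were called lower. In CD4 ThpokAD against CD8 control, Cd28, Tnfrsf1b, Tnfrsf4 and Tnfrsf9 were called higher and Il18r1 was called lower (log2 fold change -1.06 ± 0.19, adjusted p = 0.0137).

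Textbook NF-kB target genes that are no members went in both directions in CD4 ThpokAD. Of 34, 32 were tested, and 5 were called higher (Ccl3, Ccl4, Ccl5, Ccnd2 and Icam1) and 2 lower (Cd69 and Ltb) in CD4 ThpokAD libraries than in CD4 control. The chemokine Ccl5 averaged 12394 ± 1489.9 CPM in CD4 ThpokAD, 11136 ± 3613 CPM in CD8 control and 1746 ± 158 CPM in CD4 control, with log2 fold change 2.83 ± 0.24, adjusted p = 0.000655 for CD4 ThpokAD against CD4 control. Icam1, an adhesion molecule, averaged 318 ± 9.57 CPM in CD4 ThpokAD, 152 ± 32.7 CPM in CD8 control and 129.95 ± 19.4 CPM in CD4 control, with log2 fold change 1.29 ± 0.17, adjusted p = 0.0058 for CD4 ThpokAD against CD4 control. In CD8 control against CD4 control, 14 were called lower and 3 (Ccl5, Ccnd2 and Ier3) higher. The activation marker Cd69 averaged 915 ± 131 CPM in CD4 ThpokAD, 130.1 ± 19.96 CPM in CD8 control and 1607 ± 220.5 CPM in CD4 control, with log2 fold change -3.63 ± 0.18, adjusted p = 6.74e-06 for CD8 control against CD4 control. Zc3h12a, a ribonuclease that degrades inflammatory mRNAs, averaged 72.5 ± 16.9 CPM in CD4 ThpokAD, 10.8 ± 2.78 CPM in CD8 control and 150.3 ± 17.01 CPM in CD4 control, with log2 fold change -3.80 ± 0.26, adjusted p = 3.54e-05 for CD8 control against CD4 control. In CD4 ThpokAD against CD8 control, 14 targets were called higher and Ltb lower. Irf4, a transcription factor of activated T cells, averaged 131 ± 23.5 CPM in CD4 ThpokAD, 3.72 ± 1.98 CPM in CD8 control and 127 ± 7.30 CPM in CD4 control, with log2 fold change 5.17 ± 0.42, adjusted p = 0.000152 for CD4 ThpokAD against CD8 control. Many targets have other regulators as well, and Ccl3, Ccl4 and Ccl5 are also genes of cytotoxic cells.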

How the data were processed

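RNA-seq was made from 9 sorted memory T cell libraries, 3 per group. Per the labels' protocols, RNA was amplified with a low-input template-switching kit and Nextera libraries, which do not mark strand, and sequenced in pairs. Per the submitters' processing notes the tools were bcl2fastq 2.17, Trimmomatic, STAR, HTSeq and DESeq2 with the mm10 build; the sources used here give no roles and no other versions. The authors deposited raw read counts per gene for 48663 named entries, of which 26449 had a count in any library. There, 27 names had been turned into dates and hold 0.243% of the counts; they stayed in the table.

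Genes passed a low-count filter (minimum count 10 and minimum total 15), leaving 15738. Counts were scaled by TMM and tested with edgeR 4.0.16 (R 4.3.3) quasi-likelihood fits over all 9 libraries, with Benjamini-Hochberg adjustment over all genes and calls at adjusted p under 0.05. The fit was first run on simulated data, and the outcome of that run is not reported here. CPM per kb uses the exon length of GENCODE M21 gene models, the union of every annotated exon over all transcripts of a gene. Rankings and shares between genes depend on that length. Promoter windows came from RefSeq (GRCm38.p6). Alternatives were other scalings, no filter, other tools (DESeq2 1.42.0, limma 3.58.1 voom), a replicate block, 6-library fits and leaving out each library.

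All 33 members are named; values in every library are given for members called in at least 1 comparison without overlap of libraries and for the most abundant of each family, and ranges for the others. From other lists, genes are named among the called ones of smallest adjusted p; Nr4a1, Cd8a and Cd4, and genes listed by name to show a whole count, were chosen after their values were seen. The members and lists were chosen with earlier results of these data known.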

Additional observations from a re-analysis of the deposited data

How the results depend on the processing

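The smallest count of a member in any library was 157. Leaving out single libraries gave 4 to 11 members called lower in CD4 ThpokAD libraries than in CD4 control (10 with all libraries), 0 to 1 called lower in CD4 ThpokAD than in CD8 control (2 with all), 15 to 20 called lower in CD8 control than in CD4 control (20 with all) and 8 to 9 called higher in CD4 ThpokAD than in CD8 control (11 with all). Over all genes, the same omissions gave 131 to 281 higher and 50 to 196 lower in CD4 ThpokAD against CD4 control (285 and 146 with all), 421 to 707 higher and 637 to 960 lower in CD8 control against CD4 control (808 and 1031), and 438 to 586 higher and 143 to 222 lower in CD4 ThpokAD against CD8 control (729 and 301). Across all 17 alternatives, 3 of 10, 15 of 20 and 8 of 13 member calls held in CD4 ThpokAD against CD4 control, CD8 control against CD4 control and CD4 ThpokAD against CD8 control.

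DESeq2 called more genes: 850 higher and 606 lower in CD4 ThpokAD against CD4 control, 1457 and 1781 in CD8 control against CD4 control, and 1500 and 849 in CD4 ThpokAD against CD8 control. Bias-adjusted deviances gave 225 lower in CD4 ThpokAD against CD4 control, and 1109 higher and 530 lower in CD4 ThpokAD against CD8 control. The fit of only the 6 libraries compared gave 246 genes lower in CD4 ThpokAD libraries than in CD4 control. Members called lower in CD4 ThpokAD than in CD8 control numbered 1 in that fit and 1 without the low-count filter. The looser kappaB motif (GGG, any 5 bases, CC) was found in 82.1% of members, against 42.9% for the consensus and 53.5% of all genes for the looser motif. Every consensus match is also a match to the looser motif, so the looser share cannot be the smaller. The cause of the other shifts was not tested.

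Deviations of same-numbered libraries from their group means correlated at -0.0454 to 0.0620, and not every library correlated best with its own number. Values this small cannot show whether the labels' numbers pair the libraries. The main fit used no replicate block. With the replicate block, 6 members and 86 genes were lower in CD4 ThpokAD libraries than in CD4 control, and 0 members and 183 genes were lower in CD4 ThpokAD than in CD8 control. Among single members under all alternatives, no called fold change changed sign, and 122 values no longer passed the threshold. Another 26 values passed it only in an alternative, 50 values not called changed sign, and 1485 kept both call and sign.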
